A study of Mus musculus with 2 samples.

Results

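The genes of the chemokine family and of its receptors were examined for open chromatin in the liver of mouse embryos. They were chosen by symbol alone, as the protein-coding genes of the GENCODE M21 annotation named Ccl, Cxcl, Ccr or Cxcr with a number, together with Xcl1, Xcr1, Cx3cl1 and Cx3cr1. The rule found 56 of 21938 protein-coding genes, of which 37 encode ligands and 19 encode receptors. The rule itself uses no measured value.

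Accessibility had been measured by DNase-seq. In it the enzyme DNase I cuts DNA more often where no nucleosome covers it, and the cut sites are read by sequencing. The 2 libraries are biological replicates 1 and 2 of a single group, taken from separate tissue samples that carry the same donor label. Both come from whole liver at 13.5 days of embryonic development, on a mixed C57BL/6N and 129 background described as wild type with the A85 YAC, a yeast artificial chromosome present in multiple copies. The labels do not say which DNA this YAC holds, sex was not collected, and no library without the YAC was analysed here. With 1 group there is no contrast between conditions and therefore no test, and replicate 1 and replicate 2 are set side by side as 2 libraries.

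Chemokines are small secreted proteins that form gradients on cell surfaces and direct the movement of cells that carry the matching receptor, a membrane protein coupled to inhibitory G proteins. Homeostatic members such as Cxcl12 place blood stem cells and lymphocytes within organs, while inflammatory members are switched on by injury and infection through factors such as NF-kB. The fetal liver is a site of blood formation, and stem cells carrying Cxcr4 later move from it to the bone marrow along gradients of Cxcl12. In whole tissue, a weak signal from many cells and a strong signal from few cells cannot be told apart.

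A peak is an interval that the authors listed as accessible, and its deposited value was a whole multiple of 0.0127 in replicate 1 and of 0.00604 in replicate 2. Dividing by this step gave a count for each peak, with a median of 69 counts in replicate 1 and 126 in replicate 2, and the intervals below are 95% Poisson intervals of that count. They cover counting error only. Replicate 1 held 76130 peaks and replicate 2 held 73852. A region with peaks of both replicates that overlap by at least 1 bp is called shared here, and its value in a library is that of its highest peak. There were 45831 shared regions, with a median ratio of replicate 2 to replicate 1 of 0.878, and those at promoters had median values of 2.62 and 2.4. Among marker genes, shared regions lay at starts of all 5 erythroid markers and of 2 of 5 hepatoblast markers (Afp and Foxa3). The count was 3 of 5 for megakaryocyte and 2 of 5 for stellate markers. It was 1 of 5 each for lymphoid markers, endothelial markers, and granulocyte and mast cell markers. It was 0 of 5 for macrophage and 0 of 3 for epidermis markers. For protein-coding genes outside the chemokine family the share was 58.5%.

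Most chemokine and receptor genes had no listed peak at their promoters in these livers. Of the 56 genes, 8 (14.3%) had a shared region no more than 1 kb from a transcript start, where 58.5% of the other 21882 protein-coding genes had one. They were the ligand genes Cxcl12, Cxcl10, Cxcl3, Ccl25 and Ccl27a and the receptor genes Cxcr4, Cxcr3 and Ccr9. In replicate 1 by itself 13 genes had a peak there (23.2%, against 60.7% of other genes), and in replicate 2 by itself 11 had one (19.6%, against 65.4%). The remaining 40 genes had no peak within 1 kb in either library. A second deposited measure, the false discovery rate (FDR) of the cut rate along the genome, gave bases under 0.05 in both libraries for 8 genes (14.3%, against 60.2% of other genes) and in neither library for 38. These were the same 8 genes. The FDR comes from the same libraries as the peaks, so it is not independent of them. Of the 37 ligands 5 had a shared promoter region, and of the 19 receptors 3 did. By family, a shared promoter region was found at 2 of 23 CC ligands, 3 of 12 CXC ligands, 1 of 11 CC receptors, 2 of 6 CXC receptors and none of the 2 ligands and 2 receptors of the XC and CX3C classes. Among 10 homeostatic ligands 3 had one, and among the 15 inflammatory ligands that matched the annotation 2 had one.

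**Figure D1:**
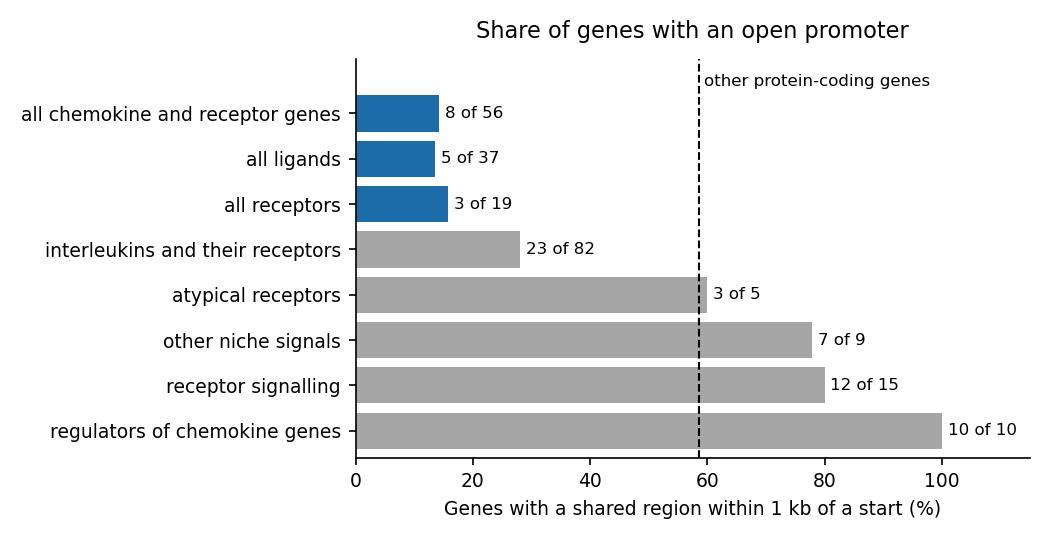
Bars give the percentage of genes whose starts have a shared region within 1 kb, for the chemokine and receptor genes (blue) and for related gene lists (grey), with the number of genes at each bar. The dashed line marks the 58.5% of other protein-coding genes, and the bar of all 56 genes ends at 14.3%, below the 28% of interleukins and their receptors.

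Cxcl12 encodes the ligand that retains blood stem cells in their niche, and it had a shared region across its start and first exon at chr6:117168361-117169020. The value was 0.418 in replicate 1 (interval 0.288 to 0.587, 33 counts) and 0.996 in replicate 2 (0.85 to 1.16, 165 counts). The intervals did not overlap, and replicate 2 was higher by a ratio of 2.38, a ratio exceeded by 0.439% of all shared regions. The authors listed 8 footprints, the short protected stretches inside an accessible region, within this region in replicate 2 and 0 in replicate 1. With the shorter of the deposited peak lists the region was not shared. In the part before the start, the following bases of the mouse reference (mm10, plus strand, chr6:117168361-117168534) show the footprints of replicate 2 in capitals.
Cxcl12 start: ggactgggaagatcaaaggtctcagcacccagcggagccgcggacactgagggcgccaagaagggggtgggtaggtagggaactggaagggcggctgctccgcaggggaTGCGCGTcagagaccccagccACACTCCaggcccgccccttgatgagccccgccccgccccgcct
This stretch held the GC box letters CCGCCC 4 times, from position 89 on (positions here and below are counted from the first printed base, on both strands), and no letters of the GATA, PU.1 or NF-kB motifs. The GC box letters were looked for after the sequences were seen. They occur in 51.7% of all shared promoter regions within their central 200 bp.

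A stronger region lay just upstream of Cxcl12, at chr6:117166921-117167100 and 1435 bp from its nearest start. It had 0.962 in replicate 1 (0.758 to 1.2) and 1.32 in replicate 2 (1.15 to 1.5), and footprints of both libraries overlapped there. The bases are shown from the plus strand, with the footprints in capitals.
Cxcl12 upstream: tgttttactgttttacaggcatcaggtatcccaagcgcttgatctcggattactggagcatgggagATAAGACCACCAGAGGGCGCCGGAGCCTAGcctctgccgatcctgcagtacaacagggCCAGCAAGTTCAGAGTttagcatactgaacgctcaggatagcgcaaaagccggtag
The first footprint covers the letters AGNGGGCGC at position 78, the core of the motif of the insulator factor CTCF, and GATA letters at its edge at position 65. The CTCF letters, chosen after the sequences were seen, occur in 8.44% of all shared distal regions within their central 200 bp. A region inside the gene, at chr6:117173961-117174180, had 0.582 (0.426 to 0.777) in replicate 1 and 1.31 (1.14 to 1.5) in replicate 2. At all 3 shared regions of Cxcl12 replicate 2 was the higher library, whereas the median shared region was lower there.

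Other niche signals were listed for comparison. Of 9 such genes 7 had a shared promoter region, and 5 of these 7 had the higher value in replicate 2 at their highest one, as did 28.8% of the other protein-coding genes with a shared promoter region. Kitl, which encodes stem cell factor, had 0.506 in replicate 1 and 0.942 in replicate 2, Il7 had 0.494 and 0.978, and the adhesion gene Vcam1 had 0.38 and 0.857. Epo, the erythropoietin gene, ran the other way with 15.6 and 11.9, as did Angpt1, the gene of angiopoietin 1, with 0.747 and 0.549. For stellate cells, a stromal cell type of the liver, 4 of 5 markers had a promoter peak in each library, and their summed values were 2.37 in replicate 1 and 3.04 in replicate 2. The 4 were not the same genes, since Pdgfrb had a peak in replicate 1 alone (0.532) and Hgf in replicate 2 alone (0.465), and Reln held the largest part of both sums (1.19 and 1.51). For endothelial cells, Kdr had 0.924 and 1.09, Cdh5 had 0.405 in replicate 1 alone, and the other three of 5 markers had no peak, with sums of 1.33 and 1.09. For hepatoblasts, 3 markers had a peak in replicate 1 and 4 in replicate 2, with sums of 13.8 and 10.4. The order of these sums came from Foxa3 (12 and 7.93), and Alb had a peak in replicate 1 alone (0.367). Afp (1.4 and 1.42), Hnf4a (none and 0.404) and Ttr (none and 0.634) were higher in replicate 2. The part of cell composition in the Cxcl12 values was not tested.

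Cxcl10, the interferon-induced ligand of Cxcr3, had the highest promoter value of the CXC ligands. Its region at chr5:92348841-92349040, within the span of the overlapping gene Art3, had 2.53 (2.19 to 2.91) in replicate 1 and 1.39 (1.21 to 1.58) in replicate 2. Replicate 1 was higher and the intervals did not overlap. The ratio of replicate 2 to replicate 1 was 0.548, and 87.8% of all shared regions had a higher one. The reference bases before the start (minus strand, chr5:92348890-92349040) carry 1 footprint found in both libraries, in capitals.
Cxcl10 start: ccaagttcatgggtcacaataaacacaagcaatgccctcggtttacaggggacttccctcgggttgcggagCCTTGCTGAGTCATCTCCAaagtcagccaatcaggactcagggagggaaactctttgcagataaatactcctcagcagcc
The footprint holds the letters GCTGANTCA at position 76, a form of the AP-1 motif bound by the blood cell factor NF-E2. They were looked for after the sequences were seen and occur in 0.876% of all shared promoter regions. GATA letters follow at position 130.

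Cxcl3, Cxcl1 and Cxcl2 encode neighbouring ligands that draw neutrophils through Cxcr2, and they differed in which library had a peak. Cxcl3 had a shared region upstream of its start, at chr5:90785621-90785840, with 0.759 (0.58 to 0.978) and 0.507 (0.404 to 0.628), and a weaker one over the start, at chr5:90786061-90786247, with 0.329 and 0.332. Cxcl1 had a peak over its start in replicate 2 alone, at chr5:90891081-90891340, with 0.525 (0.421 to 0.648). Cxcl2 also had a peak in replicate 2 alone, at chr5:90903700-90904082, with 0.374 (0.287 to 0.48). No base under an FDR of 0.05 was listed for replicate 1 near either of the latter genes. The 120 bases before the start of each (mm10, plus strand, from RefSeq promoters, chr5:90891121-90891240, chr5:90903751-90903870 and chr5:90785981-90786100 in the order printed) are shown with the NF-kB letters GGGANTTTC in capitals, since all 3 genes share them.
Cxcl1 promoter: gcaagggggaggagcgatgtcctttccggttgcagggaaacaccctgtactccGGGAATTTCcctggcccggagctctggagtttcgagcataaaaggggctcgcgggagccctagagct
Cxcl2 promoter: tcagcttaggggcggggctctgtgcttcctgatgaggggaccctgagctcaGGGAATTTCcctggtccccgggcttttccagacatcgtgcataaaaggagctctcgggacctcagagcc
Cxcl3 promoter: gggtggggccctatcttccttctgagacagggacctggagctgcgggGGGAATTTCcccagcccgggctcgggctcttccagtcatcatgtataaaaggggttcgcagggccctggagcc
The match began at position 54 in Cxcl1, 52 in Cxcl2 and 48 in Cxcl3. In Cxcl1 and Cxcl2 it lay inside the peak of replicate 2, and in Cxcl3 it lay between the shared regions. The upstream region of Cxcl3 is printed because its 2 footprints (capitals, plus strand) were found in both libraries.
Cxcl3 upstream: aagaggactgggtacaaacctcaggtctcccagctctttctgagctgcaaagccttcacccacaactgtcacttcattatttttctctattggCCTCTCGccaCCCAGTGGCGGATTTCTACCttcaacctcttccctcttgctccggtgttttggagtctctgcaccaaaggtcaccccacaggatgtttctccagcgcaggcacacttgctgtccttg

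Cxcl14, a ligand of epithelial and stromal tissue, had no peak within 1 kb of its starts, only 38 bases under an FDR of 0.05 in replicate 2 (lowest 0.0188). Cxcl5 was the other gene with such bases and no peak, with 7 bases in replicate 2. A distal region within 50 kb of Cxcl14, at chr13:56279521-56279740, had 0.911 (0.713 to 1.15) in replicate 1 and 1.7 (1.5 to 1.91) in replicate 2, the same order as at Cxcl12.

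Among the CC ligands, Ccl25, which guides T cell precursors, had the highest promoter value of the whole family, 13.4 (12.6 to 14.2) in replicate 1 and 11.1 (10.6 to 11.6) in replicate 2. This region, at chr8:4325021-4325280, also overlaps the start of Elavl1, a gene for an RNA-binding protein transcribed the other way, and the 2 starts cannot be told apart. Ccl27a, a ligand of Ccr10, had 3 shared regions along its 18 annotated starts. The highest, at chr4:41774101-41774300, had 3.34 (2.95 to 3.77) and 2.78 (2.53 to 3.04), and the next, at chr4:41773581-41773840, had 2.4 and 1.85. Within 1 kb of the 5' end of Ccl27a, 68.5% of the words of 31 bases occur again elsewhere in the genome. The same share was 100% for Ccl21b and Ccl27b, 83.7% for Ccl21a and 83.1% for Ccl19, which had no peak, so values at these 5 genes are uncertain where reads fit several copies. Across the other genes it had a median of 1.07% and a highest value of 19.8%.

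Ccl2, the main monocyte attractant, had a peak at its start in replicate 1 alone, with 0.367 (0.246 to 0.527, 29 counts). Ccl9, another myeloid ligand, had peaks of 0.418 and 0.405 in replicate 1 alone. Cx3cl1, the membrane-bound ligand fractalkine, had a peak at its start in replicate 2 alone, with 0.718 (0.595 to 0.86, 119 counts). In total 5 genes had a promoter peak in replicate 1 alone, among them Ccl2, Ccl9, Cxcr5 and Cx3cr1, and 3 in replicate 2 alone (Cxcl1, Cxcl2 and Cx3cl1). None of these peaks exceeded 0.62 in replicate 1 or 0.718 in replicate 2, below the medians of shared promoter regions.

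**Figure D2:**
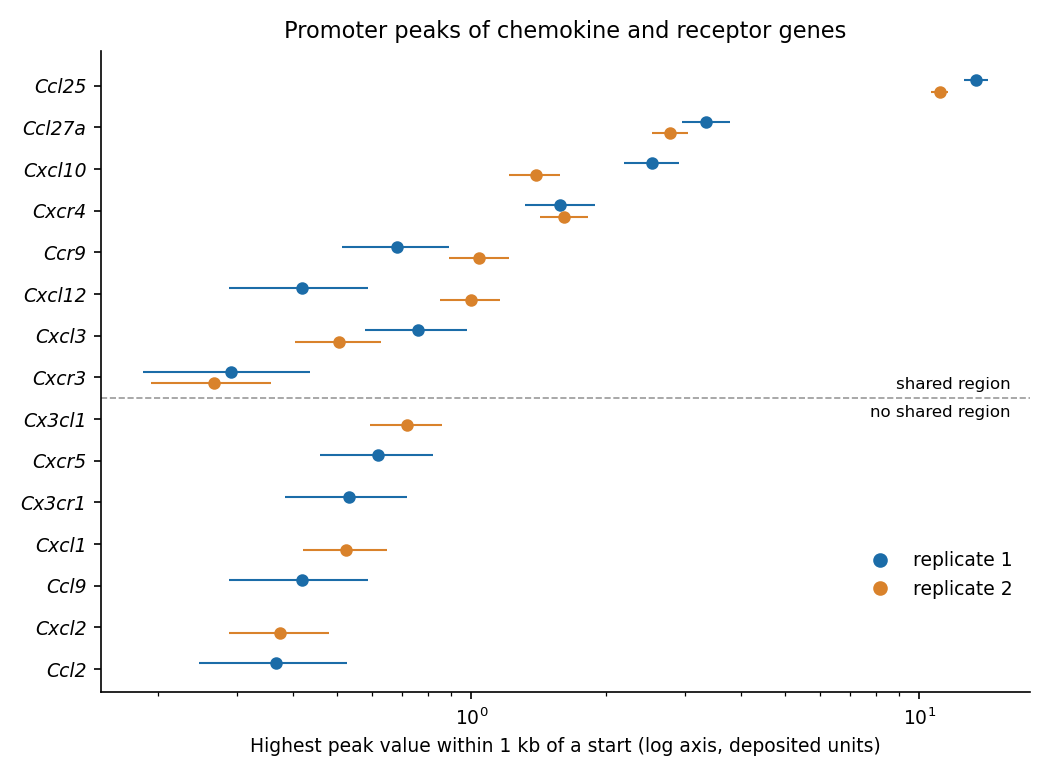
Points give the highest peak value within 1 kb of a start, on a log axis in the deposited units, for 15 genes with such a peak, in replicate 1 (blue) and replicate 2 (orange). Bars are 95% Poisson intervals, the dashed line separates genes with and without a shared region, and Ccl25 stands highest at 13.4 and 11.1 while Cxcl12 is higher in replicate 2 (0.996) than in replicate 1 (0.418).

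Among the receptors, Cxcr4, the receptor of Cxcl12 on stem cells and most blood cells, had nearly equal values in the libraries. Its region over the start, at chr1:128592241-128592680, had 1.58 (1.32 to 1.89) in replicate 1 and 1.61 (1.42 to 1.82) in replicate 2. The nearest other protein-coding start, of Dars, lay 174873 bp away. A second shared region in the intron, at chr1:128591304-128591601, had 0.405 and 0.441. Footprints of both libraries overlapped at 3 places before the start, shown in capitals below (minus strand, chr1:128592294-128592593, ending at the base before the start).
Cxcr4 start: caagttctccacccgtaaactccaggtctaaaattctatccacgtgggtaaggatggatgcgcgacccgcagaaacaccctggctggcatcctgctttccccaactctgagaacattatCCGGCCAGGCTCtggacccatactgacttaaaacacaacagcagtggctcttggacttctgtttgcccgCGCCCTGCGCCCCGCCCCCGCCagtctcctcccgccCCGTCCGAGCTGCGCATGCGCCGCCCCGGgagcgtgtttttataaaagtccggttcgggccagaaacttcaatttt
The footprint nearest to the start covers the letters GCATGCGC, the motif of the factor NRF1, at positions 236 and 238, overlapping on opposite strands, and GC box letters at 245. GC box letters at 200 lie in the next footprint upstream, and those at 220 lie mostly between these footprints. TATA box letters (TATAAA) followed at positions 263 and 265, outside the footprints. The NRF1 and GC box letters were looked for after the sequences were seen and occur in 2.71% and 35.7% of all other RefSeq promoters of 300 bp.

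Cxcr3, the receptor of Cxcl10 on activated lymphocytes, had the weakest shared promoter region, at chrX:101733941-101734158, with 0.291 (0.185 to 0.437, 23 counts) and 0.266 (0.193 to 0.357, 44 counts). It had no footprint in either library and was not shared in the shorter peak list. Ccr9, the receptor of Ccl25, had 0.683 (0.513 to 0.892) and 1.04 (0.889 to 1.21) at chr9:123678781-123679000. That region covers a start of the transporter gene Slc6a20a and lies 342 bp from the nearest start of Ccr9. A weaker region over the start of Ccr9 itself, at chr9:123678348-123678542, had 0.392 and 0.471. When regions within 1 kb of starts of other genes were left out, an alternative chosen after seeing the data, Ccl25 and Ccr9 dropped out and 6 genes kept a shared promoter region (10.7%, against 48% of other genes).

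Ccr2, the monocyte receptor of Ccl2, had no peak within 1 kb in either library, no base under an FDR of 0.05 and no shared distal region within 50 kb. It had 2 distal regions in replicate 1 alone, the higher in an exon of Ccr2 with 0.608 (0.448 to 0.805). Cx3cr1, the receptor of Cx3cl1 on monocytes and macrophages, had a peak at 1 of its starts in replicate 1 alone, with 0.532 (0.383 to 0.719). Cxcr5, a receptor of B cells, had 0.62 (0.459 to 0.82), also in replicate 1 alone. Of the 5 macrophage markers, only Cd68 had a promoter peak, with 1.53 in replicate 1 and none in replicate 2, and Csf1r, Adgre1, Timd4 and Marco had none. Of the 5 lymphoid markers only Pax5 had one, with 2.8 and 2.9. The part of these cells in the peaks of replicate 1 was not tested.

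Overlapping footprints of both libraries lay within 1 kb of a start at 5 genes, Cxcr4, Ccl27a, Cxcl3, Cxcl10 and Ccl25 (8.93%, against 52.4% of other genes). Replicate 2 had more footprints in all, 230992 against 151079, and by itself it placed them at 10 of the genes (17.9%, against 64.2% of other genes), where replicate 1 placed them at 7 (12.5%, against 56.1%). The peaks of replicate 1 by themselves also gave more than 1.5 times the shared count, as stated above.

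Away from promoters the share of genes with an accessible region was near that of other genes. A distal shared region, more than 1 kb from every protein-coding start, lay within 50 kb of a start at 37 of the 56 genes (66.1%), against 71% of other genes. The order depended on the lists and the window. By the peaks of replicate 1 alone 52 genes had one (92.9%, against 83%) and within 100 kb 50 had a shared one (89.3%, against 81.6%), both above other genes, while by the peaks of replicate 2 alone 39 did (69.6%, against 79.3%). Within 50 kb the mean of shared regions was 2.18 per gene (median 1.5), against 2.32 (median 2). Counts were uneven, with 14 genes at 3 or more, 23 at 1 or 2 and 19 at none. The genes with the most were Ccl22 with 10, Cx3cl1 and Ccr4 with 9 each, Ccr10 with 8, Cxcr5 with 7, Cxcl10, Ccl17, Cx3cr1 and Ccr8 with 6 each, and Cxcl17 with 5. Receptors had a mean of 3 and ligands of 1.76. The 96 distinct distal regions had median values of 1.15 and 0.933, close to the 1.14 and 0.911 of all 25847 shared distal regions. Of them 38 lay in introns, 10 in exons and 48 between genes, and 62 carried overlapping footprints of both libraries. These places and footprints were not counted over all shared distal regions, so the counts describe the 96 regions alone.

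**Figure D3:**
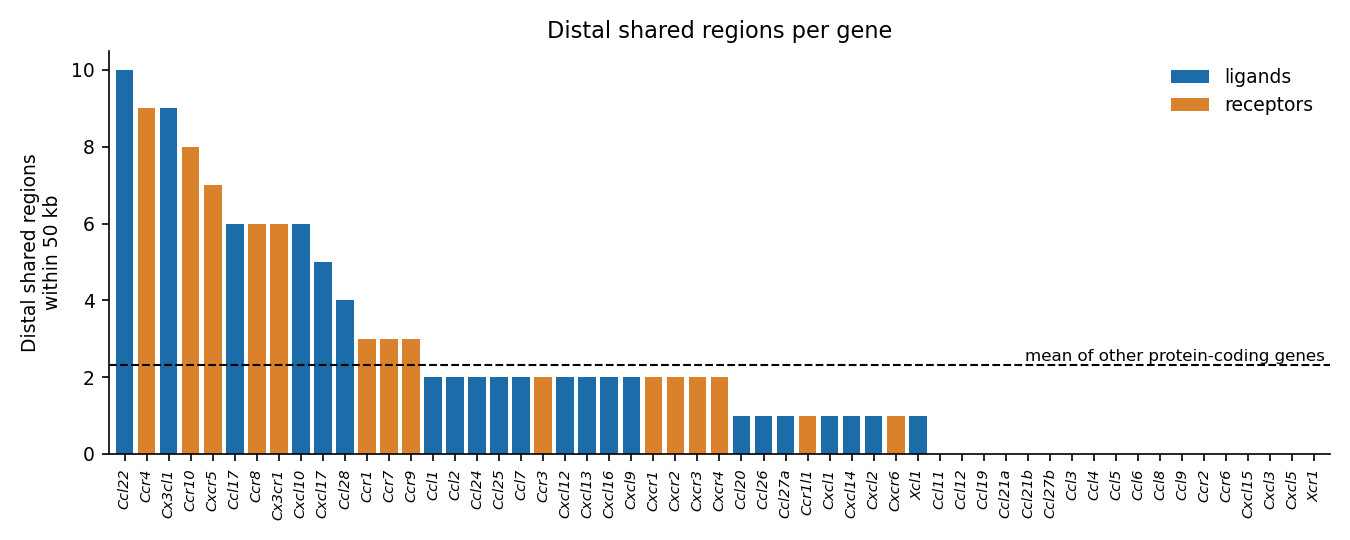
Bars give the number of distal shared regions that lie within 50 kb, for 55 of the genes, ligands in blue and receptors in orange, and the dashed line marks the mean of 2.32 in other protein-coding genes. Ccl22 is highest with 10 regions, and the genes at the right end have none.

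Ccl22 and Ccl17 encode the 2 ligands of Ccr4 and lie with Cx3cl1 in a cluster on chromosome 8 that held 14 distinct distal shared regions and no shared promoter region. The highest distal value of the family lay 41330 bp from the nearest start of Ccl22, at chr8:94704001-94704260, with 18.2 (17.3 to 19.2) in replicate 1 and 17.1 (16.4 to 17.7) in replicate 2. RefSeq places the leucine transfer RNA gene n-TLcag4 inside this region, from 94704004 to 94704086 on the minus strand, and n-TLcag5 inside the region beside it, which had 4.56 and 2.82. The 3 footprints of both libraries are in capitals (plus strand).
Ccl22 upstream: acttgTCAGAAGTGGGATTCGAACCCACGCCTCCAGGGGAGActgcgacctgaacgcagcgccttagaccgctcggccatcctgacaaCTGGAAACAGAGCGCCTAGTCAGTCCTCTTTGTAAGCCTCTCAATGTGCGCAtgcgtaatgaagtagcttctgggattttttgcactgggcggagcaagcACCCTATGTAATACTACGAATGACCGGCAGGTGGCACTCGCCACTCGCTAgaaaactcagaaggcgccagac
The first footprint lies within the transfer RNA gene, and the other 2 lie beyond its 5' end, upstream of the gene. Closer to Ccl22, at chr8:94733821-94734080 and 11510 bp from its start, a region without an annotated non-coding gene had 5.27 (4.77 to 5.8) and 3.28 (3.01 to 3.57). It was also within 50 kb of Cx3cl1. Of the 96 distal regions, 13 lay within 1 kb of a start of a non-coding gene and 2 overlapped a transfer RNA gene. Non-coding genes were not counted at all shared distal regions, so these counts are not read as a trait of the family.

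Ccr4 had no promoter peak but held a strong region in its own intron, at chr9:114498321-114498500 and 1759 bp from a start, with 6.77 (6.21 to 7.37) and 7.23 (6.83 to 7.65). The intervals overlapped. Its bases (minus strand) show 3 footprints of both libraries in capitals.
Ccr4 intron: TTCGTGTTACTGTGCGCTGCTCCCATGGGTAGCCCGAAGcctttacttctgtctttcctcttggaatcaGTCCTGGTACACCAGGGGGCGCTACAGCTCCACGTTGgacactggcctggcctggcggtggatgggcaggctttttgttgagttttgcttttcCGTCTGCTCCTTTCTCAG
The footprint in the middle contains the CTCF letters AGNGGGCGC at position 83, as at Cxcl12.

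Ccr10, a receptor of skin and mucosal lymphocytes, had its highest distal region, here and below by the sum of the libraries' values, within Cntnap1, with 3.06 and 1.8. That of Cxcr5 lay in Bcl9l, with 1.91 and 2.41 at chr9:44502141-44502320, nearly level with a second region in Bcl9l (2.04 and 2.27). In replicate 1 an intergenic region of Cxcr5 was highest, with 2.2 and 1.26. That of Cxcl10 lay in an intron of Art3, with 3.35 and 2.68. Cx3cr1 and Ccr8 are neighbours, and the highest region of each, with 3.54 and 2.4, was the same one in an exon of Slc25a38. The highest distal region of Ccl17, which Cx3cl1 also has within 50 kb, had 4.35 and 2.43, while in replicate 2 another region was highest (3.16 and 2.98). That of Cxcl17 had 1.94 and 2.2, and that of Cxcr4 lay 31170 bp away with 1.24 and 0.628. For 5 of the 10 genes with the most distal regions, the highest one by the sum lay inside another protein-coding gene, as for 5 by replicate 2 and 4 by replicate 1.

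Ccr1, a receptor of inflammatory CC ligands, had 13 distal regions in replicate 2 alone and 3 in replicate 1 alone. Its neighbour Ccr1l1 had 11 of the same 13 regions within 50 kb, so most of the run is counted for both genes. The 13 regions lay between 31.9 and 43.6 kb downstream of its 5' end, with values from 0.416 to 1.07 and 69 to 177 counts each. They reached up to a pair of shared regions, and the higher of these, at chr9:123925401-123925620, had 4.32 (3.87 to 4.8) and 5.66 (5.3 to 6.03). RefSeq places the long non-coding RNA gene Gm51701 from 123925148 on, on the plus strand, across this region. Its bases are printed from the minus strand, as Ccr1 reads, with 3 footprints of both libraries in capitals.
Ccr1 downstream: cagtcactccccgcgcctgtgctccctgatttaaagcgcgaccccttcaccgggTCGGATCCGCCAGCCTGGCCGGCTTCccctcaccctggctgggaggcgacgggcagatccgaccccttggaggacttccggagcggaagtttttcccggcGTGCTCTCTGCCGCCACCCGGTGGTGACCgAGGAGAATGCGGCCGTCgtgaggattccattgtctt
The stretch held KLF letters (CACCC) at positions 85 and 169 and no GATA letters. KLF letters are common, in 47.9% of all shared distal regions within their central 200 bp. Ccr1 was singled out after its values were seen.

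**Figure D4:**
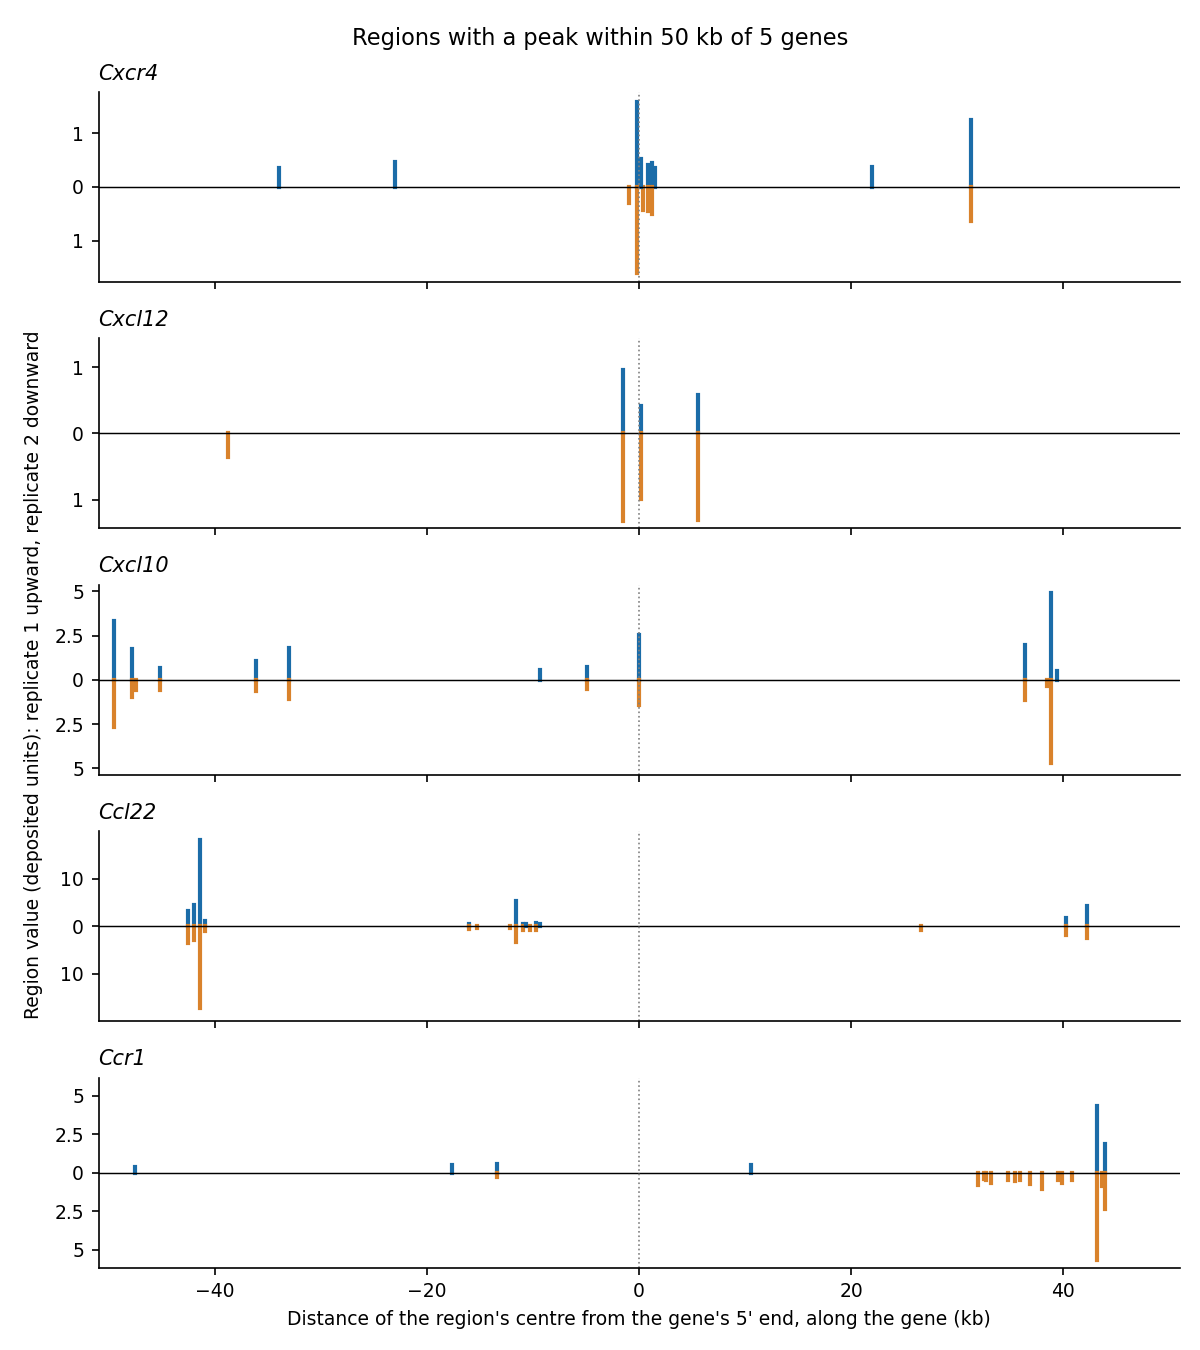
Lines give the value of every region with a peak, in the deposited units, by the distance of its centre from the 5' end along the gene (kb), for Cxcr4, Cxcl12, Cxcl10, Ccl22 and Ccr1, with replicate 1 upward in blue and replicate 2 downward in orange. Each panel has its own scale: Cxcr4 is highest at its start with 1.58 and 1.61, Ccl22 at a distal region with 18.2 and 17.1, and the run of 13 regions of replicate 2 alone stands to the right of Ccr1.

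Chemokine genes lie in clusters, and whole clusters were without shared regions. With gaps of up to 200 kb, 38 genes fell in 10 clusters and 18 stood alone. The cluster of Ccl5, Ccl9, Ccl6, Ccl3 and Ccl4 on chromosome 11, which encodes inflammatory ligands of Ccr1 among others, had no shared region of any kind within 50 kb, and 6 regions in replicate 1 alone. The cluster of Ccl27b, Ccl19 and Ccl21a on chromosome 4 had no region in either library, in a sequence with the near-identical copies described above. The cluster of Ccl2, Ccl7, Ccl11, Ccl12, Ccl8 and Ccl1 had 4 distal shared regions and none at a promoter. The 8 receptor genes of the cluster that begins with Ccr9 on chromosome 9 had 7 distal shared regions, 10 regions in replicate 1 alone and 13 in replicate 2 alone.

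Within the central 200 bp of each region, letters of blood cell factors were counted on both strands. GATA letters (AGATAA or TGATAA) were in 14 of the 96 distal regions (14.6%), against 24.2% of all shared distal regions. RUNX letters (TGTGGT) were in 8.33%, against 17.2%. PU.1 letters (GAGGAA), of the myeloid factor, were in 24%, against 18.8%, and AP-1 letters (TGANTCA) were in 13.5%, against 7.31%. CTCF letters were in 8.33%, against 8.44%. At promoters, GATA letters were in 3 of the 14 distinct shared regions of the family, against 7.71% of all shared promoter regions. A match is a description of the sequence and not a site.

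Promoters of the family were poorer in CpG dinucleotides than others. The RefSeq table of 300 bp promoters matched 42 of the 56 genes, and the first listed promoter of each was used. The others were 32802 promoters of genes outside the family, not limited to 1 per gene or to protein-coding genes. The ratio of observed to expected CpG had a median of 0.214 in the family, against 0.384 in the other promoters. A ratio above 0.6 was found in 6 (14.3%), against 35.8%. By accessibility, the median was 0.558 for the 8 genes with a shared region, 0.397 for 5 genes with a peak in 1 replicate alone and 0.192 for 29 without a peak. Ccl25 had 1.28, Cxcr4 had 0.767 and Cxcl12 had 0.639, while Cxcr3 (0.22) and Ccr9 (0.203) were open at low ratios. Cxcl14 (0.772) and Ccl21b (1.17) had high ratios and no listed peak. For Ccl21b the lack of a peak is uncertain, since 100% of the words counted around its start occur again elsewhere in the genome. Ccl21a, with 83.7% of such words and also no peak, had a ratio of 0.236. NF-kB letters were in 6 of the 42 promoters (14.3%), against 1.09% of the others, and these were Cxcl1, Cxcl2, Cxcl3, Cxcl9, Cxcr2 and Ccr3. Interferon response letters (GAAANNGAA) were in 19%, against 8.55%, and TATA box letters were in 26.2%, against 13.6%. Of the 6 genes with NF-kB letters, Cxcl3 had a shared region, Cxcl1 and Cxcl2 had a peak in replicate 2 alone, and Cxcl9, Cxcr2 and Ccr3 had no peak. Within the central 200 bp of the family's shared regions, NF-kB letters were in 0 of 14 at promoters, against 0.656% of all. They were in 1 of the 96 distal ones (1.04%), against 0.627% of all.

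**Figure D5:**
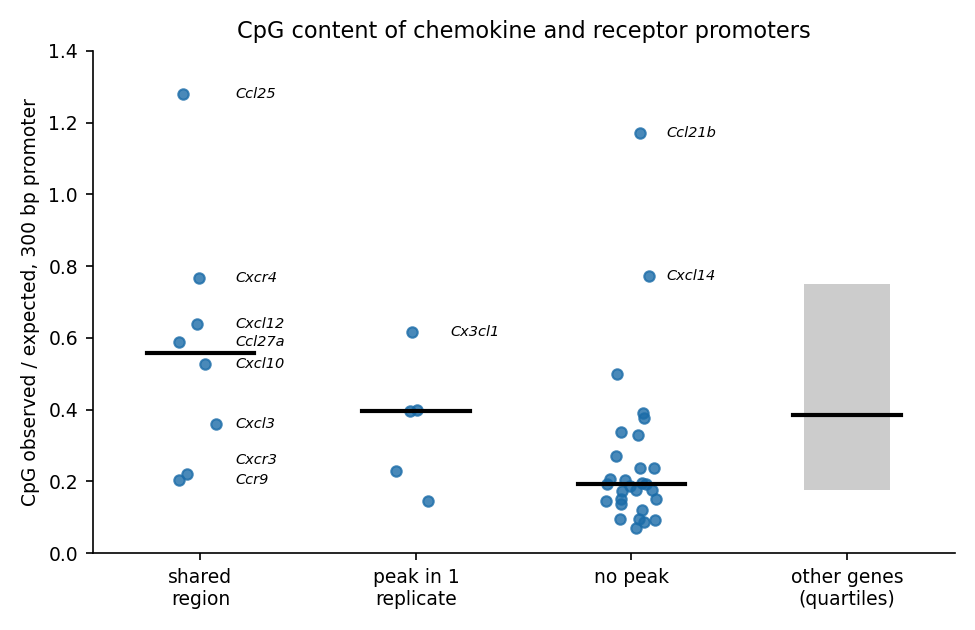
Points give the ratio of observed to expected CpG in the 300 bp promoter of 42 chemokine and receptor genes, grouped by their promoter peaks, with black lines at the medians of 0.558, 0.397 and 0.192. The grey box spans the quartiles of all other promoters of the table, with their median of 0.384.

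The rest of the pathway was read beside the same 58.5% of other protein-coding genes, with no test of the difference. Of 15 genes that transmit the signal inside the cell, 12 (80%) had a shared promoter region. They include Gnai2, which encodes the G protein subunit that chemokine receptors use, with 14.9 in replicate 1 and 10.4 in replicate 2, Arrb2, which encodes an arrestin that ends the signal, with 16.6 and 12.1, and Prex1, an activator of Rac, with 14.9 and 16.5. Plcb2, Rgs1 and Rgs18 had none. All 10 listed regulators of chemokine genes had one. By the sum of the libraries' values, Nfkb1 was lowest with 1.33 and 0.712 and Nfkb2 highest with 7.58 and 6.7, while in replicate 1 Irf8 (1.29) was below Nfkb1. Of the 5 atypical receptors, which bind chemokines without signalling through G proteins, 3 (60%) had one, a share near that of other genes. Ackr1, the chemokine-binding protein of red cells, had 4 and 2.19, Ackr3, a second receptor of Cxcl12, had 1.77 and 0.899, and Ccrl2 had 7.71 and 3.36. The platelet chemokine genes Pf4 and Ppbp had no promoter peak, although 3 of 5 megakaryocyte markers had a shared promoter region. Interleukins and their receptors, another family of signals between blood cells, had one at 23 of 82 genes (28%).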

How the data were processed

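DNase-seq of 2 libraries of embryonic liver was used. The authors derived peaks from the filtered alignment of each library alone, on mm10, per the labels and the deposited notes. Each deposited peak signal has no named normalization, and its other columns are constants. The deposited FDR, a p-value-like rate per stretch of bases, is under 0.05, and every footprint line holds 0.01, read as a threshold. Aligner and callers: not given in the sources used here.

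The longer of the 2 deposited peak lists per library was used. Within each library 100% of values were whole multiples of 1 step (tolerance 0.05). Coordinates are 1-based. GENCODE M21 and RefSeq GRCm38.p6 gave genes and sequences (21 chromosomes, C57BL/6J reference, not the animals' own alleles), and 0 entries lay past a chromosome end. Regions were merged by 1 bp of overlap and counted within 1 kb (promoter) or 50 kb (distal) of any start, in Python 3.11.15 with numpy 2.4.6 and scipy 1.17.1. This code recovered all 20 simulated pairs of lists.

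No test was run, since 1 group gives no contrast: shares are read beside those of all other protein-coding genes. The named genes are those with a promoter peak in either library, the 10 with most distal regions, and Cxcl12, Cxcr4, Cxcl14, Cx3cr1, Ccr2 and Ccl2, with the highest distal region of each. The values of 1 gene are not reported here. The rule for the genes uses symbols alone, but this family, the named genes and the comparison lists were chosen with earlier results of these data known. Alternatives were the shorter list, the upper 50% of peaks, each replicate by itself, 50% overlap, the 5' end only and other windows.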

Additional observations from a re-analysis of the deposited data

How the results depend on the processing

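Counts of genes with a shared promoter region, with a distal shared region and with overlapping footprints stayed within 1.5 times their main values of 8, 37 and 5, with these exceptions. Among the upper 50% of peaks by signal, 4 genes (Cxcr4, Ccl27a, Cxcl10 and Ccl25) had a shared promoter region and 23 a distal one. A window of 2.5 kb gave 10 genes with overlapping footprints. With 1 replicate left out, the promoter count ran from 11 to 13, the distal count from 39 to 52 and the footprint count from 7 to 10, where a single list replaces the requirement of both. Promoter and footprint shares stayed below those of other genes under all alternatives, whereas the distal share of 66.1% against 71% of other genes turned to 92.9% against 83% without replicate 2 and to 89.3% against 81.6% with a 100 kb window. The shorter peak list gave 6 genes at promoters, without Cxcl12 and Cxcr3, and changed the value of none of the 6 that remained beyond its counting interval. Depth limits the weak promoters most: 23 counts lie behind Cxcr3 in replicate 1, and a gene without a listed peak may be accessible below the lists' threshold. No paired analysis was possible because there is 1 group.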
